A study of Mus musculus with 2 samples.

Results

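The chaperones and small heat shock proteins of skeletal muscle were read here from 10 genes, chosen by name: Cryab, Hspb1, Hspb2, Hspb6, Hspb7, Hspb8, Hspa8, Hsp90aa1, Hsp90ab1 and Unc45b. All 10 had reads in both libraries, in 98 transcript models of replicate 1 and 85 of replicate 2, out of 15747 annotated genes with a read in either library. The study sequenced long RNA molecules of the gastrocnemius, a large muscle of the calf, taken at 14 days of age from females of the F1 hybrid B6CASTF1/J and starting from 2 µg of total RNA. It has 1 group of 2 libraries, replicate 1 and replicate 2, and no treated or mutant animals. For replicate 1 the biosample label counts 3 females, for replicate 2 it gives a single numbered female, and the donor identifier is shared; no source used here says whether animals were pooled. The tests below therefore compare these libraries and not conditions, and their p-values and intervals cover counting error only.

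Small heat shock proteins form large assemblies that hold unfolding proteins without using ATP, and several of them are bound to the Z-discs and intermediate filaments of muscle. Hsp70 and Hsp90 chaperones then refold or mature such clients with ATP, and Unc45b works with Hsp90 to fold the head of muscle myosin. The heat shock factor Hsf1 raises many of these genes under stress by binding repeated units in their promoters.

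Replicate 1 had 1316937 reads, of which 1248854 were assigned to annotated genes, and replicate 2 had 1204188 and 1106450. Levels are given as CPM, reads of a gene scaled to a total of 1000000 annotated gene reads, so that a single read equals 0.801 CPM in the first library and 0.904 CPM in the second. A long read covers a transcript once, so CPM needs no division by gene length, but the libraries differed by length. Weighted by reads, models averaged 2347 bases in replicate 1, against 1545 in replicate 2. The 8 skeletal muscle markers, as the tissue label says, summed to 16.8% of gene reads in replicate 1, against 15.4% in replicate 2. They did not all go one way. Myh4 (23064 CPM in replicate 1 and 11318 CPM in replicate 2), Actn3, Ckm and Ttn were higher in replicate 1. Tnnt3 (1315 CPM in replicate 1 and 2475 CPM in replicate 2), Mb, Des and Acta1 were higher in replicate 2. Markers of Schwann cells took 0.0310% and 0.187%, and those of fibroblasts 0.792% and 0.340%. The fibroblast sum rested on Col1a1 and Col3a1, while Dcn had 330 CPM in replicate 1 and 314 CPM in replicate 2, and Pdgfra had 8.81 and 8.13 CPM. What part other cells had in the values below was not tested, and in whole muscle fewer cells of a type and less RNA per cell cannot be told apart.

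Some of the sequences behind the results are set out first. The coding ends of the ATP-dependent chaperones Hspa8, Hsp90aa1 and Hsp90ab1 share a C-terminal tetrapeptide that co-chaperones with tetratricopeptide repeats, such as Stip1 and Stub1, bind. The last 36 coding bases are shown for each gene from the GENCODE M21 transcripts, with the 4 codons of that tetrapeptide in capitals. They lie at chr9:40805079-40805114 (plus strand), chr12:110691543-110691578 (minus strand) and chr17:45568018-45568053 (minus strand) on GRCm38.
Hspa8: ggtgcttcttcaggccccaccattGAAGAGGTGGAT
Hsp90aa1: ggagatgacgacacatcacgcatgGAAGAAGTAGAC
Hsp90ab1: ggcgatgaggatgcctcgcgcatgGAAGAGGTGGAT

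Over their whole coding sequences Hsp90aa1 (2199 bases) and Hsp90ab1 (2172 bases) were identical at 1656 of 2172 aligned bases, or 76.2%. The small heat shock proteins were less alike, from 53.7% of aligned coding bases between Hspb2 and Hspb7 to 64.5% between Cryab and Hspb6. Reads of different members can therefore be told apart, but this does not hold for every copy in the genome. Hspa8 has a processed pseudogene, Gm15459, a copy without introns, that differs from its 1938 coding bases at 5 positions. Hspb1 has Hsp25-ps1, which differs from its 627 coding bases at 4 positions. Each pair is shown over 60 coding bases with the differing bases in capitals, since reads were assigned to both genes of each pair. The stretch of Hspa8 covers coding bases 84 to 143 (chr9:40802006-40802065, plus strand), against chr5:5783413-5783472 (minus strand) for Gm15459, and holds the substitution G114A, with positions counted from the first coding base of Hspa8. The stretch of Hspb1 covers coding bases 550 to 609 (chr5:135889350-135889409, plus strand), against chr13:45078519-45078578 (minus strand) for Hsp25-ps1, and holds G559A, T561C and T609C, counted likewise in Hspb1.
Hspa8: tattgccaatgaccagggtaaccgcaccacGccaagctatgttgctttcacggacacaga
Gm15459: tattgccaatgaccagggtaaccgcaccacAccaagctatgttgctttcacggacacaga
Hspb1: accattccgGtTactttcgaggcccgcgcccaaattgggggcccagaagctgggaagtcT
Hsp25-ps1: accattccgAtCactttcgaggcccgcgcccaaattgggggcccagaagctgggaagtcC

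Together the 10 genes held 0.337% of gene reads in replicate 1 (4204 reads, 95% Wilson interval 0.327 to 0.347%) and 0.303% in replicate 2 (3350 reads, 0.293 to 0.313%). The 6 small heat shock proteins took 2087 and 1964 of these reads, and the 4 other genes 2117 and 1386. The constitutive chaperone Hspa8 was the most abundant of the 10 in both libraries and Hsp90aa1 the least abundant in both. The order between them differed, with Hsp90ab1 in rank 2 and Cryab in rank 4 in replicate 1, and Cryab in rank 2 and Hsp90ab1 in rank 4 in replicate 2. By mean level the order was Hspa8, Hsp90ab1, Cryab, Hspb8, Hspb6, Hspb1, Unc45b, Hspb2, Hspb7 and Hsp90aa1. The values of neighbours in this order overlapped between the libraries, except at 4 steps, namely from Hspa8 to Hsp90ab1, from Hspb8 to Hspb6, from Hspb1 to Unc45b and from Hspb7 to Hsp90aa1.

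**Figure D1:**
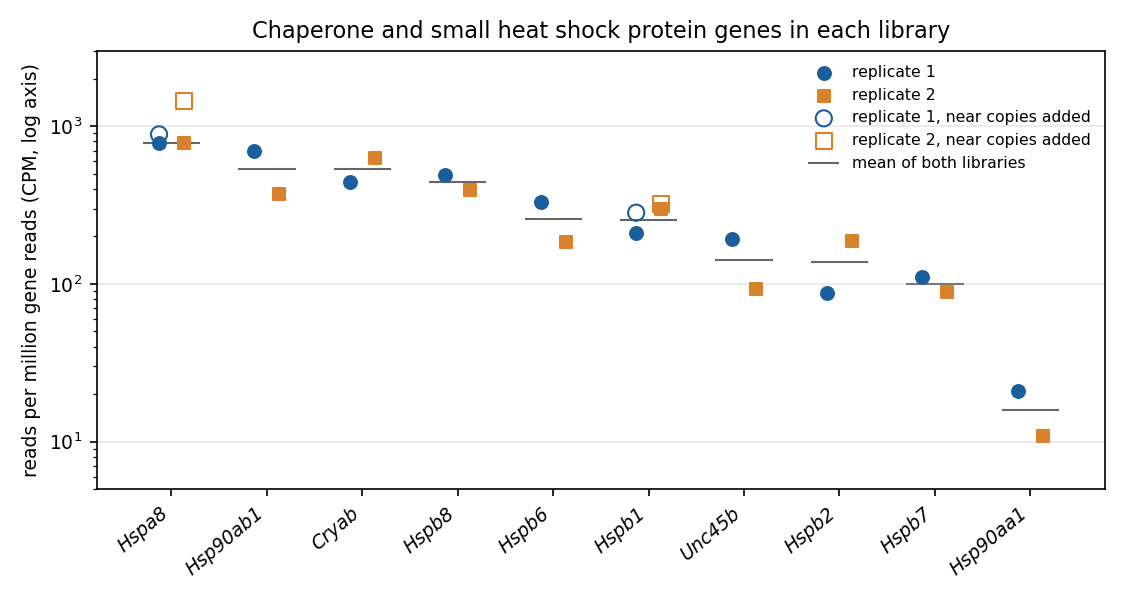
Level of each of the 10 genes in replicate 1 (circles) and replicate 2 (squares), in CPM on a log axis, with a line at the mean of both; open symbols add the reads of near copies for Hspa8 and Hspb1. Hspa8 stood at 782 and 778 CPM, and at 886 and 1450 CPM with its copies added, while Hsp90aa1 was lowest at 20.8 and 10.8 CPM.

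Among the small heat shock proteins, Cryab (αB-crystallin, a partner of desmin and of the Z-disc) had 443 CPM in replicate 1 (553 reads) and 624 CPM in replicate 2 (690 reads). Hspb8, which works with the co-chaperone Bag3 in the autophagic removal of damaged filamin, had 491 CPM in replicate 1 (613 reads) and 393 CPM in replicate 2 (435 reads). These genes led the 6, Hspb8 in replicate 1 with 29.4% of the reads of the 6 genes (27.4 to 31.4%) and Cryab in replicate 2 with 35.1% (33.0 to 37.3%). Hspb6, a muscle protein phosphorylated by cyclic nucleotide-dependent kinases, had 329 CPM in replicate 1 (411 reads) and 184 CPM in replicate 2 (204 reads). Hspb1, which binds actin filaments and caps them in its unphosphorylated form, had 211 CPM in replicate 1 (263 reads) and 299 CPM in replicate 2 (331 reads). Hspb2, first described as a binding partner of the myotonic dystrophy protein kinase, was lower in replicate 1 than in replicate 2, at 87.3 CPM (109 reads) against 186 CPM (206 reads). Hspb7, the cardiovascular member of the family, had 111 CPM in replicate 1 (138 reads) and 88.6 CPM in replicate 2 (98 reads). Hspb3, the remaining muscle member, had 28.0 CPM in replicate 1 (35 reads) and 108 CPM in replicate 2 (119 reads), below all 6 of these genes in replicate 1 and above Hspb7 alone in replicate 2. The lens form Cryaa and the testis form Hspb9 had no read, which allows up to 3 reads in each library, or 2.40 CPM in replicate 1 and 2.71 CPM in replicate 2.

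Of the ATP-dependent chaperones, Hspa8 had 782 CPM in replicate 1 (977 reads) and 778 CPM in replicate 2 (861 reads). The stress-inducible Hsp70 genes were near the limit of detection, Hspa1a with 10 reads in replicate 1 and 4 in replicate 2, and Hspa1b with 0 and 4. Hspa8 took 95.8% of the reads of Hspa8, Hspa1a, Hspa1b and Hspa2 in replicate 1 (exact interval 94.4 to 96.9%) and 96.3% in replicate 2 (94.9 to 97.4%). Hsp90ab1, the constitutive cytosolic Hsp90, had 699 CPM in replicate 1 (873 reads) and 371 CPM in replicate 2 (411 reads). Hsp90aa1, its stress-inducible paralog, had 20.8 CPM in replicate 1 (26 reads) and 10.8 CPM in replicate 2 (12 reads). The proportion of the pair differed by less than counting error, and Hsp90aa1 took 2.89% of the pair's reads in replicate 1 (1.90 to 4.21%) and 2.84% in replicate 2 (1.47 to 4.90%). Each read of Hsp90aa1 was thus matched by 33.6 reads of Hsp90ab1 in replicate 1 and 34.3 in replicate 2. Unc45b, the myosin chaperone of striated muscle, had 193 CPM in replicate 1 (241 reads) and 92.2 CPM in replicate 2 (102 reads). It took 92.0% of the reads of Unc45b and its broadly expressed relative Unc45a in replicate 1 (88.0 to 95.0%) and 90.3% in replicate 2 (83.2 to 95.0%).

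The near copies, looked up after the levels were known, moved the mean level of Hspa8 by more than the spread between the libraries, and that of Hspb1 by less. Gm15459 (chromosome 5, 5781615 to 5783555, minus strand) was given 128 reads in replicate 1 and 742 in replicate 2, or 13.1 and 86.2 reads for each 100 of Hspa8. Another of its 13 near copies, Gm8355, had 1 read in each library. All but 1 of the reads of Gm15459 were in models with a single exon, and its annotated transcript has 1941 bases. In the authors' tables Gm15459 was lower in replicate 1 than in replicate 2 by a log2 ratio of -2.99 (Fisher's exact test with Benjamini-Hochberg adjustment, adjusted p = 1.11e-120), whereas Hspa8 itself was not called. With the reads of the copies added, Hspa8 stood at 886 CPM in replicate 1, against 1450 CPM in replicate 2, a log2 ratio of -0.99 (adjusted p = 2.03e-35 by the same test), just inside the size threshold of 1. How many reads of the pseudogene came from Hspa8 was not tested, so the equal levels of Hspa8 in the libraries hold for the authors' assignment only. For Hspb1 the copy moved the other way, with 90 reads in Hsp25-ps1 in replicate 1 and 22 in replicate 2. Added to Hspb1, these reads gave 353 reads in each library, or 283 CPM in replicate 1, against 319 CPM in replicate 2. The log2 ratio of Hspb1 was then -0.46 (adjusted p = 0.229, Fisher's exact test), against -0.79 (adjusted p = 0.000165) without the copy. Of the other 8 genes, Hsp90aa1 had 3 near copies and Hsp90ab1 had 4, none with a read in either library, and for 6 genes no near copy was found at 85% identity over 50% of the coding bases.

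Between the libraries 1 of the 10 genes, Hspb2, was called, lower in replicate 1. The call needed an adjusted p under 0.05 by Fisher's exact test on the reads of a gene against all other gene reads, with Benjamini-Hochberg adjustment over the 8973 genes that had 10 or more reads in both libraries together, and a log2 ratio of at least 1 in size. Of all genes tested, 8.83% were called as higher in replicate 1, 11.4% as higher in replicate 2 and 20.2% in either direction, so 1 of 10 is not above the background. With scaling by the total in place of TMM, 1113 genes were called as higher in replicate 1 and 810 as higher in replicate 2, in place of 792 and 1021. Ratios use TMM factors, a shift of -0.28 (log2) against scaling by the total, so a gene with equal CPM has a ratio near -0.28. The log2 ratio of Hspb2 was -1.37 (adjusted p = 8.41e-10, Fisher's exact test). The next in size were Hspb1 (-0.79), Cryab (-0.78), Unc45b (0.78), Hsp90ab1 (0.63), Hsp90aa1 (0.63) and Hspb6 (0.55), and Hspa8, Hspb8 and Hspb7 lay at -0.28, 0.04 and 0.03. Hsp90ab1, Hspb6, Unc45b, Cryab, Hspb1 and Hspb8 also had an adjusted p under 0.05 but a ratio below 1 in size. The 20.2% of all genes given above met both thresholds, so it is not the background for passing on p alone. The test was run on unscaled reads, so its p-values belong to scaling by the total and not to the TMM ratios. With scaling by the total, the log2 ratio of Hspb8 was 0.32 (adjusted p = 0.00227, Fisher's exact test). The median TMM ratio (log2) over the 10 genes was 0.03, against -0.01 over all genes tested.

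The ratios of the 10 genes followed the length of their transcripts in part. Those with the shortest models, Hspb2 (738 bases), Hspb1 (894 bases) and Cryab (925 bases), had the lowest ratios, and Unc45b, with the longest (3210 bases), had the highest. Others did not keep to this order, such as Hspb6 (1332 bases, 0.55) and Hspa8 (2203 bases, -0.28), which lay well below Hsp90ab1 of similar length (2322 bases, 0.63). Over all genes tested the median log2 ratio was -1.89 for 281 genes of at most 500 bases, -1.30 for 919 genes of 500 to 1000 bases, -0.38 for 2602 genes of 1000 to 2000 bases, 0.32 for 4135 genes of 2000 to 4000 bases and 0.66 for 1036 longer genes. With the trend on length removed and an exact binomial test, Hspb2 was no longer called (log2 ratio -0.08, adjusted p = 0.916). Hspb6 then was, higher in replicate 1 (log2 ratio 1.09, adjusted p = 8.52e-18 by the exact binomial test), against a background of 2.4% of all genes called in that direction, 4.25% in the other and 6.64% in either. Cryab and Hspb1 turned to 0.26 and 0.29 and Hspb7 to -0.11, none of them called. Hspa8 (-0.37), Hsp90ab1 (0.48) and Cryab also had an adjusted p under 0.05, with ratios below 1 in size. By the exact binomial test these were adjusted p = 1.50e-06, 4.87e-07 and 0.0150. Before the trend was removed, Hspa8 had an adjusted p of 0.991 by Fisher's exact test.

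**Figure D2:**
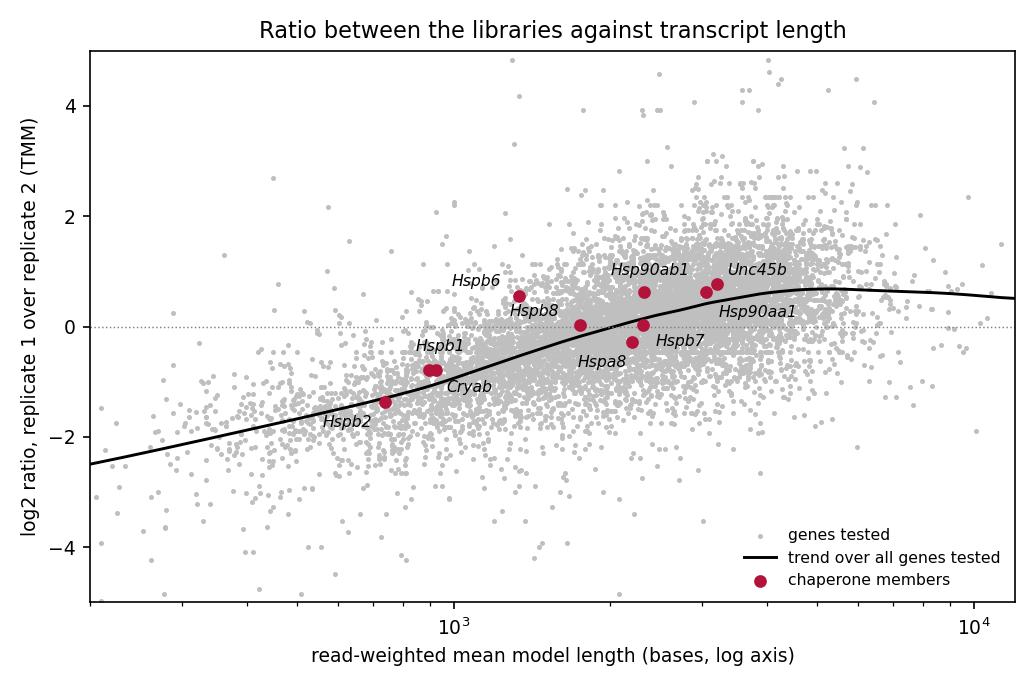
Log2 ratio of replicate 1 over replicate 2 (TMM scale) for 8973 genes tested, against the read-weighted mean length of their models on a log axis, with the trend as a black line and the 10 genes in red; points outside the axes are not shown. Hspb2, Cryab and Hspb1 lie low with the short transcripts near the line, and Hspb6 lies 1.09 above it.

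Hspb2 and Cryab are neighbours on chromosome 9, in opposite orientation. Hspb2 (minus strand) starts at 50752293 and Cryab (plus strand) at 50752907, with 613 bases between them, so that both genes are read outward from a shared stretch. Hspb2 took 16.5% of the reads of the pair in replicate 1 (exact interval 13.7 to 19.5%) and 23.0% in replicate 2 (20.3 to 25.9%), which is 5.07 and 3.35 reads of Cryab for each read of Hspb2. A minor form of Cryab begins on the far side of this stretch. Its upstream first exon (50751877 to 50751947, 71 bases) lies within the only intron of Hspb2, on the opposite strand. It was used by 23 of 548 reads that hold a first exon in replicate 1 (4.20%, 2.68 to 6.23%) and by 33 of 675 in replicate 2 (4.89%, 3.39 to 6.80%). With a longer form of this exon and an exon farther upstream counted as well, the reads were 24 and 35. A short intron inside the main first exon was removed in 13 of these reads in replicate 1 and in 17 in replicate 2. These forms kept the same annotated start of the coding sequence, at 50753277. An unannotated chain that joins the upstream exon to the acceptor of that short intron had 9 reads in replicate 1 and 8 in replicate 2.

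Hspb2 also had minor forms that differ after its annotated coding start. A first exon extended at its donor was seen in 6 of 103 full splice reads in replicate 1 (5.83%, exact interval 2.17 to 12.2%). In replicate 2 it was seen in 2 of 190 (1.05%, 0.128 to 3.75%). What protein this exon would give was not tested. In a shorter annotated transcript the second exon begins 282 coding bases later than in the leading one, which leaves out 94 codons and keeps the frame. It was seen in 4 of 103 full splice reads in replicate 1 (3.88%, exact interval 1.07 to 9.65%) and in 8 of 190 in replicate 2 (4.21%, 1.84 to 8.13%). The coding bases around the junction are shown for the leading and the shorter form, 30 on each side with those of the second exon in capitals. They are read on the minus strand within chr9:50751704-50752206 and chr9:50751422-50752206 of GRCm38.
Hspb2 leading form: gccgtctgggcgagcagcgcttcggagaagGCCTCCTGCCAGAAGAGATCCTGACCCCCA
Hspb2 shorter form: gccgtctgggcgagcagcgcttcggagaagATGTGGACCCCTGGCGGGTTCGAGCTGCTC

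Most of the other members were close to 1 form each, Unc45b less so. Over both libraries the 10 genes had 77 full splice chains, sets of introns of known or unannotated transcripts, of which 60 were unannotated and 40 of those rested on 1 read. GENCODE M21 lists 48 transcripts for these genes, and 17 of them had a read. The leading chain held 88.3% (Hspb2 in replicate 1) to 99.7% (Hspa8 in replicate 2) of the full splice reads of the 8 genes tested. None of the 8 differed between the libraries in the share of its leading chain by Fisher's exact test with Benjamini-Hochberg adjustment over 1417 genes, of which 1.98% were called (0.917% as higher in replicate 1 and 1.06% as higher in replicate 2) at an adjusted p under 0.05 and a difference of at least 10 percentage points. None of the 8 had an unadjusted p under 0.05 either, the smallest being 0.0620 for Hspb6 with its exact test, at 98.7% in replicate 1 (380 of 385 reads) and 96.2% in replicate 2 (175 of 182). Hspb1 had 1 chain in both libraries, with 260 and 325 reads, and its annotated form with a kept intron had 0 of 260 and 0 of 325 reads, which allows up to 1.15% and 0.923%. Hsp90aa1 had 24 and 9 full splice reads, all in 1 annotated form of 11 exons, too few for the test. For the annotated form with a longer second exon, a count of 0 in 25 and 9 reads allows a share of up to 12% and 33.3%.

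Unc45b, with 20 exons in its leading form, had the most unannotated chains, 15, of which 4 were found in both libraries. The largest of these was assigned a first exon inside the gene that ends at the first donor of the non-coding transcript Unc45b-204 but begins upstream of it, with 7 reads in replicate 1 and 1 in replicate 2. A form with 6 more coding bases at the end of exon 12, the annotated Unc45b-205, was seen in 1 of 222 reads in replicate 1 and 0 of 74 in replicate 2, which allows up to 4.05%. The added bases, 2 codons, are shown in capitals within chr11:82929044-82929450 (GRCm38, plus strand), with 30 coding bases on each side, above the same stretch of the leading form.
Unc45b-205: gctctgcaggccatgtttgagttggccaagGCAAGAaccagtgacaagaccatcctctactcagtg
Unc45b-201: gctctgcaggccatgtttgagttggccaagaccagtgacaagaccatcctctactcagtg

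How complete the reads were differed more than the choice of form. The tables place each model in a class, where Known models have an annotated set of introns, NIC and NNC models are unannotated sets from known and from other splice sites, incomplete splice matches (ISM) hold a part of an annotated set, and Genomic models lack the splicing of the gene. Known, NIC and NNC together, here full splice reads, made up 94.5% of the reads of the 10 genes in replicate 1 and 86.7% in replicate 2, against 89.1% and 80.6% over all annotated genes. These all-gene shares are weighted by reads. The median share per gene, over genes with at least 50 reads, was 93.3% in replicate 1 (2644 genes) and 89.3% in replicate 2 (2162 genes). The NNC class alone was 1.33% and 1.04% for the 10 genes, against 14.1% and 5.30% over all genes. Of 9 genes tested, 3 had a full splice share that was higher in replicate 1 by at least 10 percentage points, at an adjusted p under 0.05 by Fisher's exact test with Benjamini-Hochberg adjustment over 1850 genes. Over all genes tested 26.4% were called in this direction, 0.27% in the other and 26.7% in either, so 3 of 9 is near the background.

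Hspa8 had 96.1% full splice reads in replicate 1 (939 of 977) and 81.1% in replicate 2 (698 of 861; adjusted p = 2.13e-24, Fisher's exact test). The gap lay mostly in a single model of 480 bases with the last 2 exons, which had 9 reads in replicate 1 and 120 in replicate 2. Exon 7 of the 9 exons was reached by 98.7% of Hspa8 reads in replicate 1 and 83.6% in replicate 2, whereas exon 8 was reached by 99.6% and 97.6%. In Hsp90ab1 the share was 90.6% in replicate 1 (791 of 873) and 71.8% in replicate 2 (295 of 411; adjusted p = 8.32e-16, Fisher's exact test), with 2 and 40 reads in a model of the last exon alone. Unc45b had 90.9% in replicate 1 (219 of 241) and 68.6% in replicate 2 (70 of 102; adjusted p = 7.46e-06, Fisher's exact test). Hspb8 differed in the same direction but by less than 10 points, at 98.2% and 90.1%, with 9 and 43 Genomic reads. Cryab, Hspb1 and Hspb2 lay between 92.2% (Hspb2 in replicate 2) and 99.8% (Cryab in replicate 1), and Hspb7 had the lowest shares in both, 69.6% in replicate 1 (96 of 138) and 60.2% in replicate 2 (59 of 98). In Hspb7 a model of the last exon, of 1433 bases, held 38 reads in replicate 1 and 39 in replicate 2. With full splice reads alone, scaled to the total of full splice reads, the mean level of Hspb7 was 76.2 CPM. With all its reads, scaled to all gene reads, it was 99.5 CPM, so these values are on different scales. Cryab had 631 CPM on the first scale and 533 CPM on the second.

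**Figure D3:**
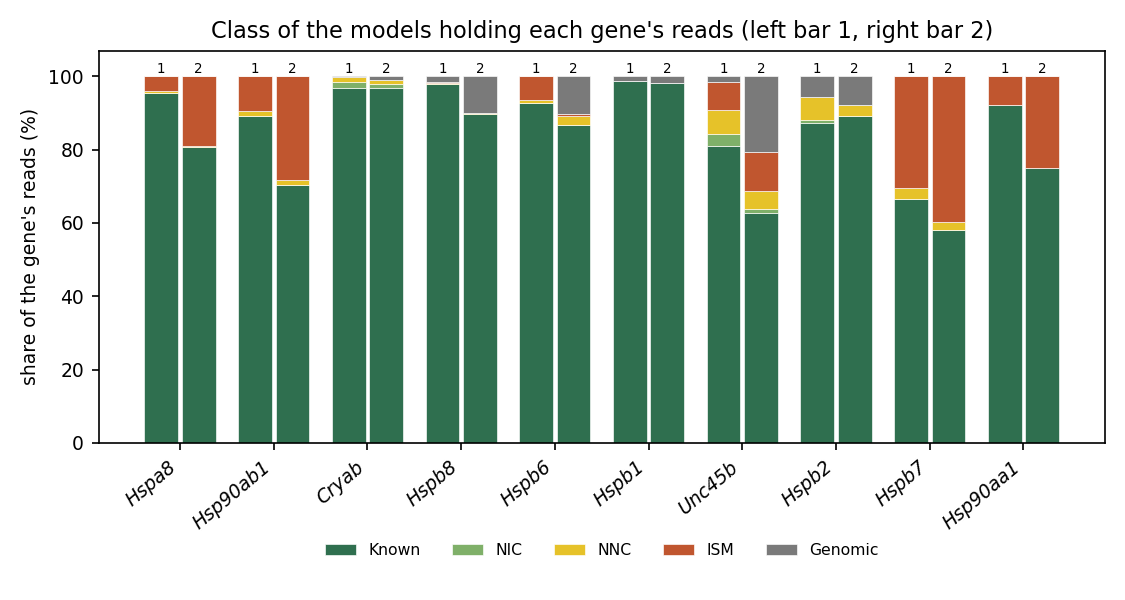
Share of each gene's reads in the 5 model classes, with replicate 1 as the left bar and replicate 2 as the right bar of each pair, in percent. ISM reads made up 3.89% and 18.9% of Hspa8 and 9.39% and 28.2% of Hsp90ab1, while Cryab and Hspb1 were almost wholly Known in both libraries.

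**Figure D4:**
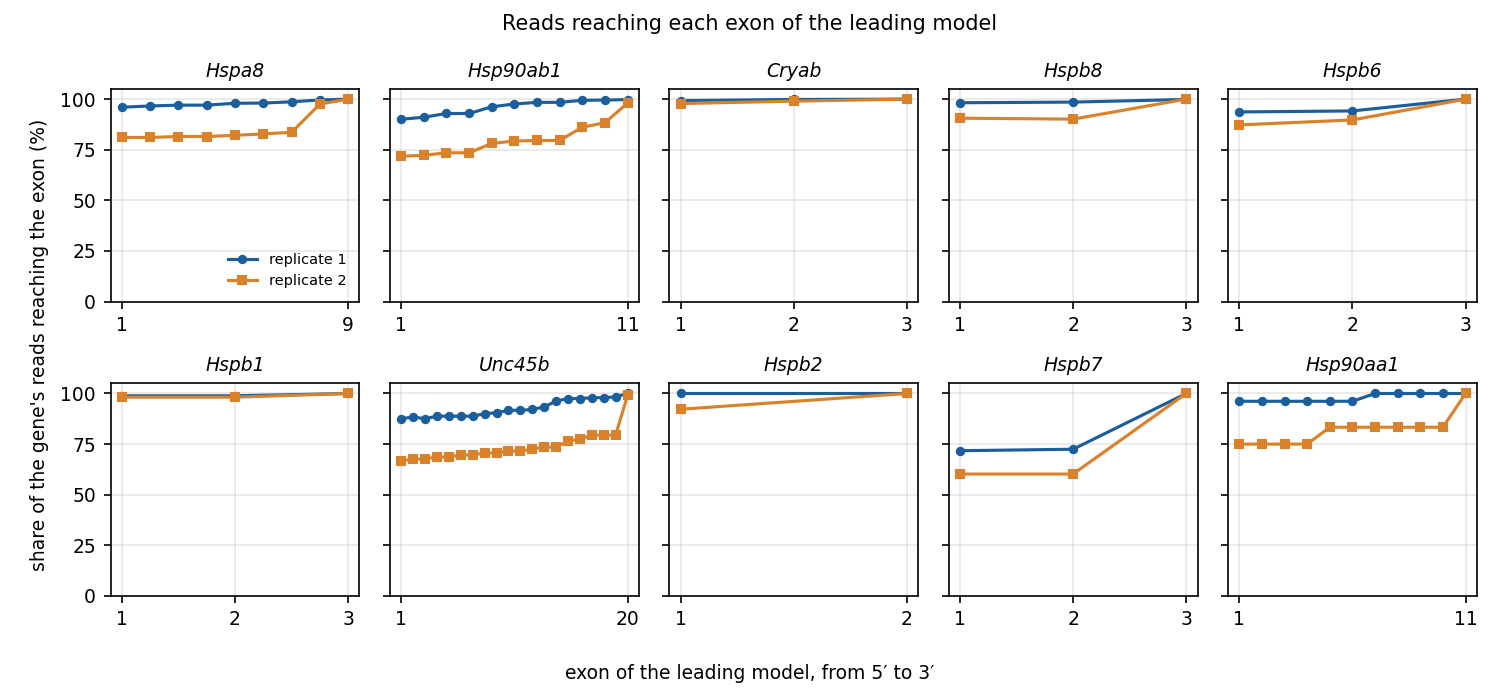
Share of the reads of each gene, in percent, that reach each exon of its leading model from the 5′ end to the 3′ end, in replicate 1 (circles) and replicate 2 (squares). The first exon was reached by 96.0% and 81.1% of Hspa8 reads, 90.0% and 71.8% of Hsp90ab1 reads, and 99.3% and 97.8% of Cryab reads.

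The promoters could be compared for 5 of the 10 genes, Hspb1, Hspb6, Hspb7, Hspb8 and Unc45b, which have 6 windows of 300 bases in the RefSeq table (GRCm38.p6), from 250 bases before to 50 after the start. GAANNTTC, an inverted pair of the units that heat shock factors bind, was found in 3 of the 6 windows, those of Hspb1, Hspb8 and the downstream start of Hspb6. It is its own reverse complement, so both strands were searched at once, and 7.86% of all 32851 windows hold it. The other pair, TTCNNGAA, was in none of the 6 and in 8.52% of all windows, and neither form of the element of 3 alternating units (both strands, present in 0.603% of windows each) was found in the 6. The matches in Hspb6, Hspb8 and the first of Hspb1 have the same 8 letters. In Hspb1 the matches began 117 and 97 bases before the start, in Hspb6 120 bases before it, and in Hspb8 2 bases after the first transcribed base. TATAAA was in the same Hspb6 window and in 13.6% of all windows (both strands), CANNTG in 4 of the 6 and in 72.3%, and the MEF2-type element in none and in 3.69%. The pairs are shown in capitals with 10 bases on each side, at chr5:135887792-135887839 (plus strand) for Hspb1, chr7:30553171-30553198 (plus strand) for Hspb6 and chr5:116422845-116422872 (minus strand) for Hspb8.
Hspb1: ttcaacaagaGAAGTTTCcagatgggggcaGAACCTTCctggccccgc
Hspb6: agtaattattGAAGTTTCtaaataagga
Hspb8: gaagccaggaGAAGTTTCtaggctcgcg

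Such matches are a description of letters and say nothing of whether a factor was bound in this muscle. Hsf1 had 44.0 CPM in replicate 1 (55 reads) and 39.8 CPM in replicate 2 (44 reads). Its relative Hsf2 had 15 reads in replicate 1 and 18 in replicate 2, and Hsbp1, a small protein that binds the trimer of Hsf1, had 167 CPM in replicate 1 and 305 CPM in replicate 2.

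Partners of the 10 genes were expressed at lower levels for the most part. Of 99 genes in 8 lists of related chaperones, co-chaperones and autophagy partners, 97 had a read, and 30 had a mean above the 99.5 CPM of Hspb7. Among Hsp70 family genes the organelle forms led, the mitochondrial Hspa9 with 357 CPM in replicate 1 and 193 CPM in replicate 2 and the endoplasmic Hspa5 with 278 and 249 CPM, followed by the Hsp110-type Hspa4 with 83.3 and 58.7 CPM. Among Hsp70 co-chaperones Bag1 had 175 and 204 CPM, Dnajc19 had 97.7 and 270 CPM and Dnaja2 had 210 and 104 CPM. Bag3, the partner of Hspb8, had 103 CPM in replicate 1 and 71.4 CPM in replicate 2. The Hsp90 co-chaperones Fkbp8 (227 and 160 CPM), Cdc37 (172 and 154 CPM), which brings kinases to Hsp90, and Fkbp4 (158 and 111 CPM) led their list. Near Unc45b stood Smyd1, a muscle methyltransferase that works in myosin assembly, with 190 CPM in replicate 1 and 104 CPM in replicate 2, and Smyd2 with 195 and 116 CPM. Of the chaperonins and prefoldin, Cct5 had 291 and 249 CPM, Hspd1 244 and 228 CPM and Pfdn1 175 and 358 CPM. The intermediate filament desmin (Des), to which Cryab binds, stood far above all of these with 3655 CPM in replicate 1 and 3744 CPM in replicate 2, and Vcp (512 and 262 CPM) and Synpo2 (293 and 134 CPM) came next in the autophagy list.

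**Figure D5:**
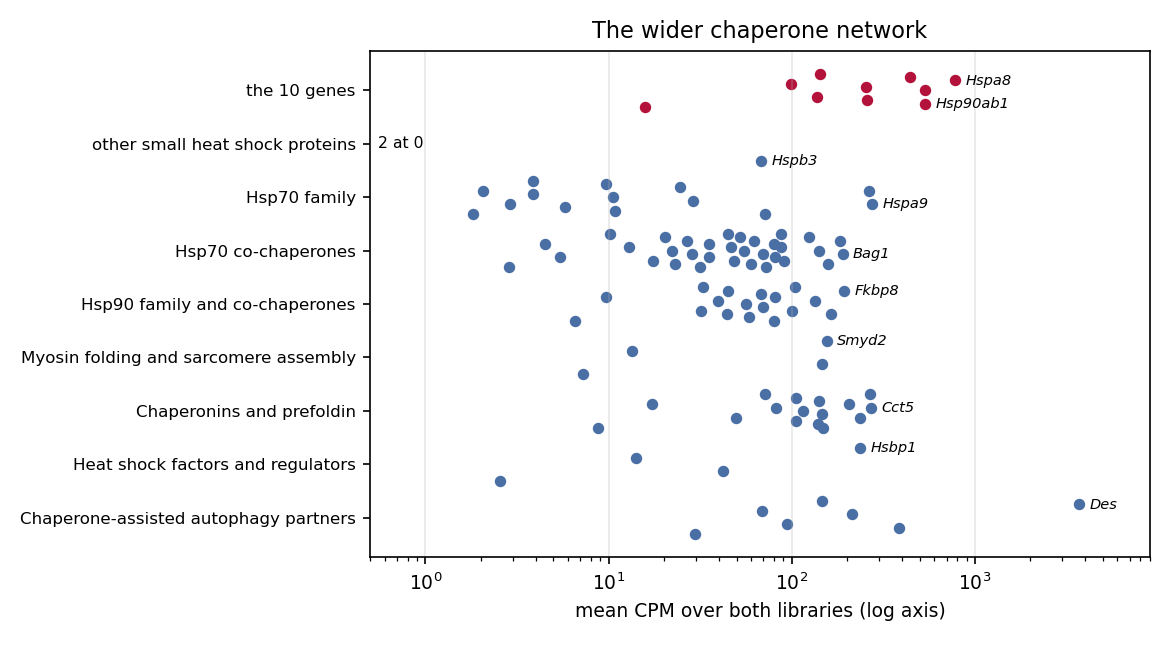
Mean CPM over both libraries on a log axis for the 10 genes (red, top row) and for the genes of 8 related lists (blue), 1 point per gene, with the leading genes named. Hspa8 had the highest mean of the red points at 780 CPM, and among the blue points the mean of Des, 3700 CPM, was the only one above it.

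Of 90 genes of these lists that were tested, 7 were called as higher in replicate 1 (7.78%) and 8 as higher in replicate 2 (8.89%) by Fisher's exact test with Benjamini-Hochberg adjustment, close to the 8.83% and 11.4% of all genes. Those higher in replicate 1 were the co-chaperones Dnaja3, Dnajb12, Dnajc5, Dnajc10 and Dnajc21, with log2 ratios from 1.01 to 1.20, and the autophagy genes Sqstm1 (1.12) and Wipi1 (1.21). Those higher in replicate 2 were the short-transcript genes Hspb3 (-2.21), Dnajc19 (-1.75), Hspe1 (-1.49), Pfdn1 (-1.32), Pfdn4 (-1.95), Pfdn5 (-1.37), Pfdn6 (-2.57) and Hsbp1 (-1.15). With the length trend removed none of these 8 was called, and Dnajc21, Sqstm1 and Wipi1 still were, while Dnajc3 (-1.36) and Dnajc15 (-1.53) were called as higher in replicate 2. Before removal the ratios of Dnajc3 and Dnajc15 were -0.70 and -0.84, not called, and the trend rests on model lengths. With the trend removed, 3.33% of the 90 genes were called as higher in replicate 1 and 2.22% as higher in replicate 2. Over all genes these shares were 2.4% and 4.25%. None of 18 Hsp90 family and co-chaperone genes and none of 9 Hsp70 family genes was called with either method, although 5 and 2 of them had an adjusted p under 0.05 by Fisher's exact test with a ratio below 1 in size. No share of all genes passing on p alone is given here to set beside these counts.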

How the data were processed

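Long-read RNA sequencing was analysed in 2 libraries of 1 group. Each library has a deposited table of raw counts of reads for every model seen, per the file headers, and a matching GTF that gives the exons. The GTF names TALON, which sorts long reads into models. The files are on mm10 (GRCm38) with GENCODE M21, per the labels. The aligner is not given in the sources used. Reads of a gene were summed over the models assigned to it, with spike-ins and unannotated loci left out. TMM factors came from edgeR 4.0.16 and size factors from DESeq2 1.42.0. Fisher's exact tests (scipy 1.17.1) were two-sided with Benjamini-Hochberg adjustment over all genes tested, on unscaled reads, and log2 ratios of TMM-scaled CPM used a prior count of 0.5. Shares needed at least 50 reads in each library, and intervals are exact (Clopper-Pearson) at 95% unless named Wilson. Reads carry no molecular identifiers, so intervals and floors of 3 reads cover counting error only. Near copies were sought with BLAST+ 2.17.0, after the data were seen. All tests were first tested on simulated data. Every member is named, with the first 3 genes of each other list by mean CPM, all called genes of these lists and Hspb3, Bag3, Hsf1 and Smyd1. Members and lists were chosen with earlier results of these data known. The comparison of protein sequences was not run, since no protein table was used here.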

Additional observations from a re-analysis of the deposited data

How the results depend on the processing

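No paired analysis was possible because the study has a single group. The summed level of the 10 genes, 0.320% of gene reads, lay between 0.303% and 0.337% with either library left out, and was 0.363% with the reads of near copies added, an alternative chosen after seeing the data. With scaling by the total, the ratio of Hspa8 was 0.0076 and Unc45b was called. This gave 1 of the 10 genes higher in replicate 1 in place of 0. Over all genes, 1113 of 8973 were called in that direction and 810 in the other. Full splice models alone also gave 1 of the 10, again Unc45b. Of 7815 genes tested there, 893 were called in the same direction and 852 in the opposite one. In neither setting was 1 of 10 above the background. With the length trend removed, 1 of the 10 was called as higher in replicate 1 and 0 as higher in replicate 2, over all genes 215 and 381 were called in place of 792 and 1021, and Cryab (0.26), Hspb1 (0.29) and Hspb7 (-0.11) changed sign. With at least 50 reads in the sum, 4161 genes were tested in place of 8973. Of these, 350 were called as higher in replicate 1, in place of 792, and 827 as higher in replicate 2, in place of 1021. For full splice shares, 9 genes in place of 5 were higher in replicate 2 both when Known models were set against the rest, where Hspb2 turned to -2.16 points, (1850 genes tested in both) and with at least 20 reads in each library (3891 tested). With ISM reads counted in the leading chain share, 2 of 8 members tested were higher in replicate 1, Hspa8 (12.9 points, in place of a difference in the other direction) and Hsp90ab1, 68 and 29 of 1545 genes were called in all, and Hspb8 (-0.15 points) and Unc45b (2.84 points) changed sign. The cause of these changes was not tested, apart from what each setting leaves out. Depth limits rare forms: Hsp90aa1 had 26 and 12 reads.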

Other observations

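One read of Hspa8 in replicate 1, in a model of 13 exons that the authors placed in the NIC class, joined exons within the upstream gene Clmp to those of Hspa8. Unannotated loci on the strand opposite to the 10 genes held at most 3 reads for any gene in either library, the most for Hspa8, with 2 reads in replicate 1 and 3 in replicate 2. In replicate 2, 16 reads of Hspb2 were listed in a Genomic model of 1 base, so the bounds of a model in the deposited annotation are not the length of its reads.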
